A study of Mus musculus with 8 samples.

Results

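The HOX genes measured in primary skin fibroblasts comprised every probe whose gene symbol was Hox followed by a cluster letter from a to d and a paralog number. This gave 53 probes of 39 genes, among 25697 probes of 18138 gene symbols on the Illumina MouseRef-8 v2.0 BeadChip, an array of 1 colour that holds 1 intensity per probe. RNA of fibroblasts from 8 mice was hybridised, 1 array per mouse. The Nd2-mutant group held 4 mice of the conplastic strain C57BL/6J-mtALR/LtJ, numbered 28 and 32 (males) and 34 and 35 (females). The control group held 4 mice of C57BL/6J-mtAKR/J, the males 16 and 17 and the females 15 and 37. All 8 mice were 12 months old, and the cultures were untreated. Both strains share the C57BL/6J nuclear genome, including the HOX genes, and differ in the donor of their mitochondrial genome, with a base exchange in the mitochondrial gene Nd2, a subunit of respiratory complex I, in the mutant strain. The body site of the skin biopsies is not given in the sources used here, so a difference in site between the mice and a difference between the strains cannot be told apart.

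HOX genes encode homeodomain transcription factors that lie in 4 clusters, HoxA to HoxD. Within a cluster the genes are numbered by paralog group from 1, at the end expressed toward the head, to 13, at the end expressed toward the tail and the tips of the limbs. Skin fibroblasts keep in culture much of the HOX pattern of the site they were taken from, so the set of HOX genes that are on or off serves as a positional code. TALE homeodomain proteins (PBX, MEIS) bind DNA together with HOX proteins, Polycomb complexes hold HOX genes silent, Trithorax complexes hold them active, and retinoic acid sets the early pattern.

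Intensities are given below in the arbitrary units of the deposited values. A probe was called detected on an array where its deposited detection p-value, computed from the negative control beads, was under 0.01. The lowest intensity of a detected probe lay between 10.5 and 12.1 on the mutant arrays and between 12.7 and 13.6 on the control arrays. Calls of dim probes and counts of detected probes therefore rest on a lower limit in the mutants than in the controls. Between 10663 and 11350 probes were detected per array, more in each of the 4 mutant cultures than in any control culture. Of 11 fibroblast marker genes on the array, 10 were detected in all 8 cultures. The array of control mouse 15 stood apart, with a mean correlation with the other arrays of 0.934 against 0.963 to 0.974 for the other 7. Its summed intensity was 1507 for 7 Schwann cell markers, against at most 670.3 elsewhere, and 1290 for 10 endothelial markers, against at most 760.5, with 3 of the 7 Schwann cell markers detected on no array. In the culture of mutant mouse 35, 12 macrophage markers summed to 2074, against at most 663.3 elsewhere. Several results are therefore also given without control mouse 15 or without mutant mouse 35. In bulk cultures, fewer cells of a type and less RNA per cell cannot be told apart.

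These fibroblasts carried a code of 13 HOX genes detected in all 8 cultures: Hoxa5, Hoxa7 and Hoxa13 of HoxA, Hoxb2, Hoxb4, Hoxb5, Hoxb6 and Hoxb7 of HoxB, Hoxc6, Hoxc9, Hoxc10 and Hoxc13 of HoxC, and Hoxd8 of HoxD. A further 8 genes were detected in 1 to 7 cultures and 18 in none. The middle of the clusters was the most filled: of the genes of paralog groups 5 to 8, 7 of 11 were detected in all 8 cultures, against 2 of 12 in groups 1 to 4 and 4 of 16 in groups 9 to 13. HoxB had the most such genes, 5 of 10, and HoxD the fewest, 1 of 9, with 3 of 11 for HoxA and 4 of 9 for HoxC. These are counts of a fixed set of genes and were not tested.

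**Figure D1:**
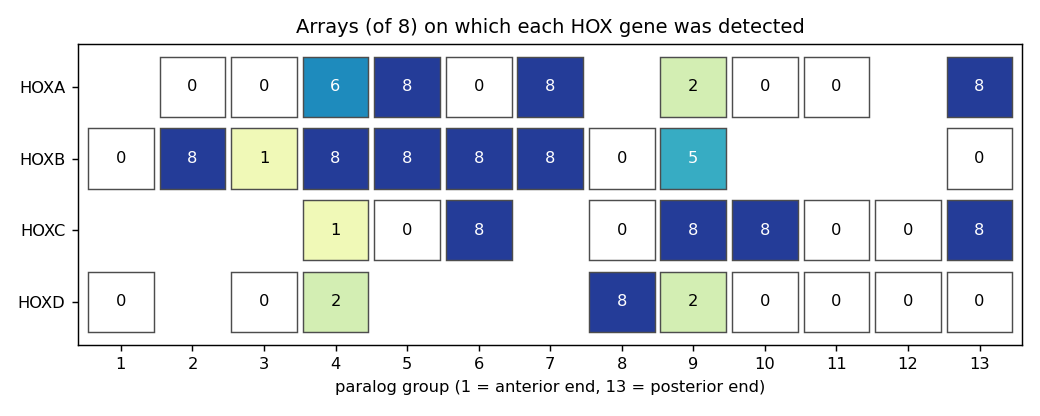
Number of arrays (of 8) on which each HOX gene was detected at a detection p-value under 0.01, by cluster (rows) and paralog group (columns, 1 to 13). Dark squares are the 13 genes detected on all 8 arrays, white squares with 0 the 18 genes detected on none, and empty places have no gene on the array or are not reported here. The dark squares lie mostly in groups 5 to 8, with HoxC 9, 10 and 13 and HoxA 13 to the right.

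In HoxA, on chromosome 6, the 3 genes of the code were Hoxa5, which patterns the neck and chest skeleton and the lung, Hoxa7, a gene of the trunk, and Hoxa13, a gene of the limb tips and the genital tubercle. Hoxa13 was detected by 1 of its 3 probes (ILMN_3087004, 14.9 to 38.2), and the other 2 were detected on no array, at -4.09 to 6.14. Between Hoxa7 and Hoxa13 the cluster was empty or nearly so, with Hoxa9 on 2 arrays and Hoxa10 and Hoxa11 on none. Hoxa4 was detected on 6 arrays, and Hoxa2, Hoxa3 and Hoxa6 on none.

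In HoxB, on chromosome 11, Hoxb2 and the unbroken run from Hoxb4 to Hoxb7 were detected in every culture, Hoxb9 in 5, Hoxb3 in 1, and Hoxb1, Hoxb8 and Hoxb13 in none. In HoxC, on chromosome 15, the intensities of Hoxc6 ran from 1036 to 1418 and those of Hoxc9 from 420.0 to 689.5; both pattern the thoracic level. Hoxc10, a gene of the lumbar level and the hindlimb, was detected on all arrays by both of its probes, at 354.5 to 762.2 and at 104.1 to 324.6. Hoxc13, which directs hair and nail keratin genes, was close to the detection limit, at 11.2 to 32.8. Hoxc4 was detected on 1 array, and Hoxc5, Hoxc8, Hoxc11 and Hoxc12 on none. In HoxD, on chromosome 2, Hoxd8 was detected in all cultures, at 117.9 to 221.8, Hoxd4 and Hoxd9 on 2 arrays each, and Hoxd1, Hoxd3 and Hoxd10 to Hoxd13 on none.

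The 31 probes of the 18 undetected genes and of genes with a second, silent probe reached at most 12.6. A gene without a detected probe may still be transcribed, since 29 of the 39 genes had a single probe, and of the 10 genes with several probes 4 had probes that fell into different classes of detection. The size of the code moved with the detection threshold: at p under 0.05 the code held 16 genes, with Hoxa4 and Hoxb9 among those added, and at p under 0.001 it held 9, without Hoxa13, Hoxb5, Hoxb6 and Hoxc13.

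Other genes of regional identity were read from a list of 42 transcription factors, of which 38 were on the array and 14 were detected in all 8 cultures. En1, a marker of the lineage of dorsal trunk dermis, had intensities of 219.8, 239.9, 157.8 and 161.2 in the mutant cultures of mice 28, 32, 34 and 35 and of 264.3, 181.9, 171.8 and 154.4 in the control cultures of mice 15, 16, 17 and 37. Tbx5, the forelimb gene, and Tbx4, a hindlimb gene, were detected in no culture. Pitx1, the other hindlimb gene of the list, was detected in 1, at 11.2 in mutant mouse 32. Other limb genes of the list were detected in all 8 cultures, Shox2 at 51.8 to 208.8 and Tbx3 at 53.4 to 217.6. Tbx15 was detected in no culture. Of 9 TALE cofactors, all on the array, 6 were detected in all 8 cultures, among them Meis1, at 272.3 to 451.2, and Meis2, at 157.3 to 334.2. The strains overlapped for En1, Meis1 and Meis2.

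The 8 cultures differed in the call of 8 HOX genes. Per culture, 15 to 18 HOX genes were detected: 17, 18, 15 and 15 in mutant mice 28, 32, 34 and 35, and 17, 15, 15 and 17 in control mice 15, 16, 17 and 37. Of the 39 genes, 31 (79.5%) had the same call in all 8 cultures, and of the 53 probes 45 (84.9%) did, against 86.2% of all 25697 probes. Of the HOX probes 26.4% were detected on all 8 arrays and 58.5% on none, against 36.6% and 49.7% of all probes. The share with a constant call was thus near that of the whole array, and most of it came from genes detected in no culture. Of the 21 HOX genes detected in at least 1 culture 8 varied, and of the 22 such probes 8 (36.4%) did, against 27.3% of all 12937 such probes. Leaving out any 1 array left the code at 13 genes.

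The 8 genes whose call varied lay near the detection limit, at -2.37 to 33.9, and none was detected on all 4 arrays of a strain, so none was tested between the strains. A few of them are given here because their values stood out, a choice made after seeing them. Hoxd4 was 33.9 in control mouse 15 and 1.69 to 12.0 in the other 7 cultures. Hoxb3 was 22.8 in control mouse 15 and 13.1 in control mouse 16, and 0.597 to 6.80 elsewhere, by its probe ILMN_3071262. Hoxb9 was 33.5 in control mouse 37 and 21.6 in control mouse 15, and 9.44 to 14.6 elsewhere. Hoxa4 was 30.2 and 28.4 in mutant mice 28 and 32, the mutant males, and 9.42 to 17.3 elsewhere. In each of these cases the highest values were those of 1 or 2 cultures, and no strain was high as a whole. Hoxa4 was nevertheless detected on 6 arrays and Hoxb9 on 5. Because the detection limit was lower on the mutant arrays, these calls are not alike between the strains. Hoxd9, for example, was called detected at 10.65 in mutant mouse 28 but not at 12.97 in control mouse 16.

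**Figure D2:**
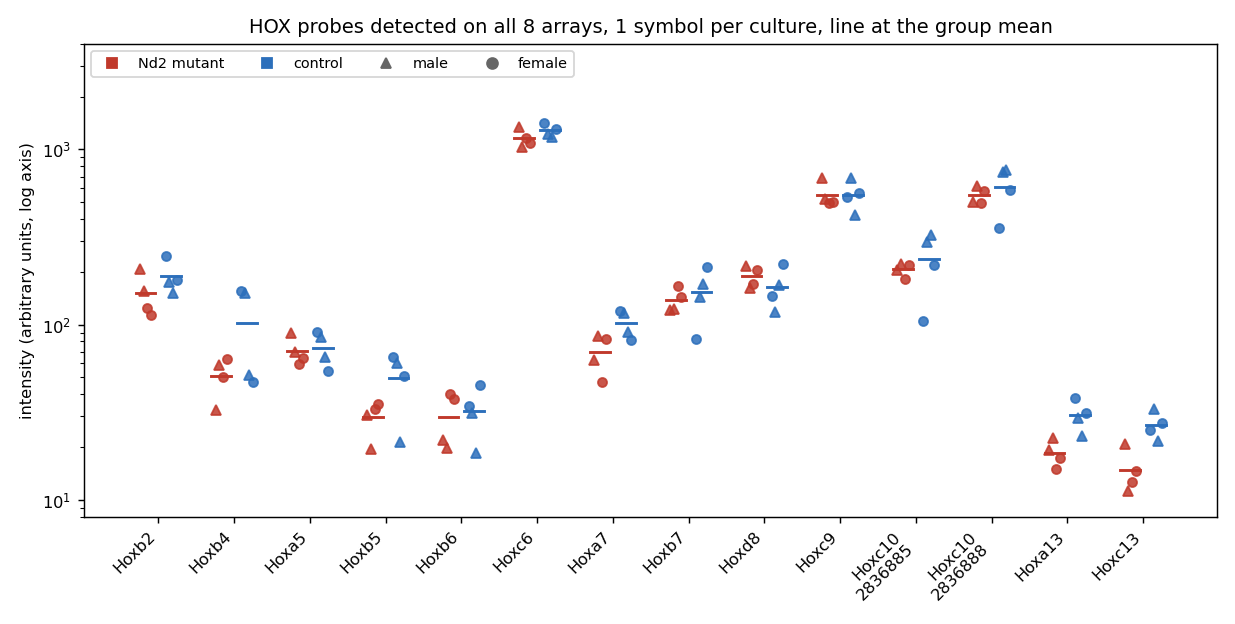
Intensity (arbitrary units, log axis) of the 14 HOX probes detected on all 8 arrays, ordered by paralog group, with 1 symbol per culture (red, Nd2 mutant; blue, control; triangle, male; circle, female) and a line at the arithmetic mean of the 4 cultures. The symbols of the strains mix for 12 of the 14 probes and separate for Hoxa13 and Hoxc13. The heights of different probes are not comparable with each other.

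How much the genes of the code varied in amount was measured as the standard deviation (SD) over the 8 cultures of log2 of the intensity with 16 added. The median SD of the 14 HOX probes was 0.325 (range 0.152 to 0.666), against 0.268 over the 10414 probes tested, and 11 of 14 lay above that median. Within strains the medians were 0.298 and 0.260, and without control mouse 15 they were 0.278 and 0.217. No test was made of these medians, since genes are not replicates.

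Hoxb4, which patterns the neck and acts in blood stem cells, varied the most. Its intensity was 32.7, 58.4, 49.9 and 63.5 in mutant mice 28, 32, 34 and 35, and 155.5, 151.9, 51.3 and 47.2 in control mice 15, 16, 17 and 37. Control mice 15 and 16 were high and the other 2 controls lay among the mutants, a 4.76-fold range with an SD of 0.67, larger than that of 96.4% of the probes tested. Hoxb5, its neighbour in the cluster, had the third largest SD, 0.45, with 65.1 and 60.1 in control mice 15 and 16, 21.2 and 50.5 in control mice 17 and 37, and 30.5, 19.5, 33.0 and 34.98 in the mutants. Hoxc10 came between them by 1 probe: ILMN_2836885 gave 104.1 in control mouse 15, 296.9 and 324.6 in the male controls 16 and 17, 219.4 in control mouse 37, and 204.1, 221.3, 182.5 and 218.3 in the mutants, with an SD of 0.45. The other Hoxc10 probe also had its lowest value in control mouse 15, 354.5 against 495.8 to 762.2.

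The steadiest was Hoxc6, with 1347, 1036, 1168 and 1090 in the mutant cultures and 1418, 1226, 1180 and 1305 in the control cultures, a 1.37-fold range and an SD of 0.15, larger than that of 11.2% of the probes tested. Hoxa5 followed with an SD of 0.23, with 89.6, 69.7, 59.3 and 64.4 in the mutants and 90.1, 84.9, 65.0 and 54.1 in the controls. Hoxc9 also had an SD of 0.23, with 689.5, 524.1, 492.8 and 503.6 against 531.6, 687.2, 420.0 and 561.7. In all 3 the strains overlapped.

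**Figure D3:**
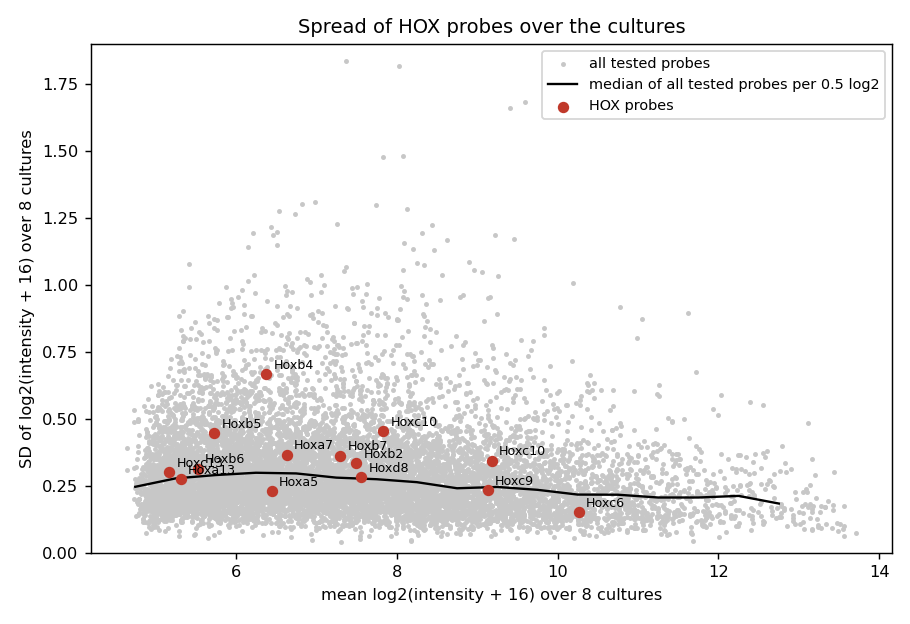
SD over the 8 cultures against the mean, both of log2(intensity + 16), for the 14 HOX probes (red, named) and all 10414 tested probes (grey), with the median SD of all tested probes per step of 0.5 in the mean (black line). Hoxb4 (0.67), Hoxb5 (0.45) and Hoxc10 (0.45) lie highest above the line, and Hoxc6 (0.15), Hoxa5 (0.23) and Hoxc9 (0.23) below it.

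The variation did not run along the whole code in 1 direction. Control mouse 15 had the highest value of 7 of the 14 probes and the lowest of 3, and its root mean square deviation from the probe means was 0.54 on the log2 scale, against 0.19 to 0.42 in the other cultures. For the 4 probes of paralog groups 2 to 5 its mean deviation was 0.62 and that of control mouse 16 was 0.45, while control mice 17 and 37 lay at -0.26 and -0.07 and the mutants between -0.26 and -0.09. For the 5 probes of groups 9 to 13 control mouse 15 lay at -0.20, control mouse 16 at 0.36, control mice 17 and 37 at 0.13 each, and the mutants between -0.25 and -0.01. For the 5 probes of groups 6 to 8 all cultures lay between -0.16 and 0.27. Control mouse 15 was thus high in the anterior genes and low in Hoxb7 and Hoxc10, and control mouse 16 was high at both ends. Control mouse 15 was also high in Hoxa7 (0.45), Hoxa13 (0.44) and Hoxc13 (0.18). Its negative mean for groups 9 to 13 came mainly from the Hoxc10 probes (-0.65 and -0.93). The Schwann cell and endothelial markers that were high in control mouse 15 were not tested for a part in this.

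**Figure D4:**
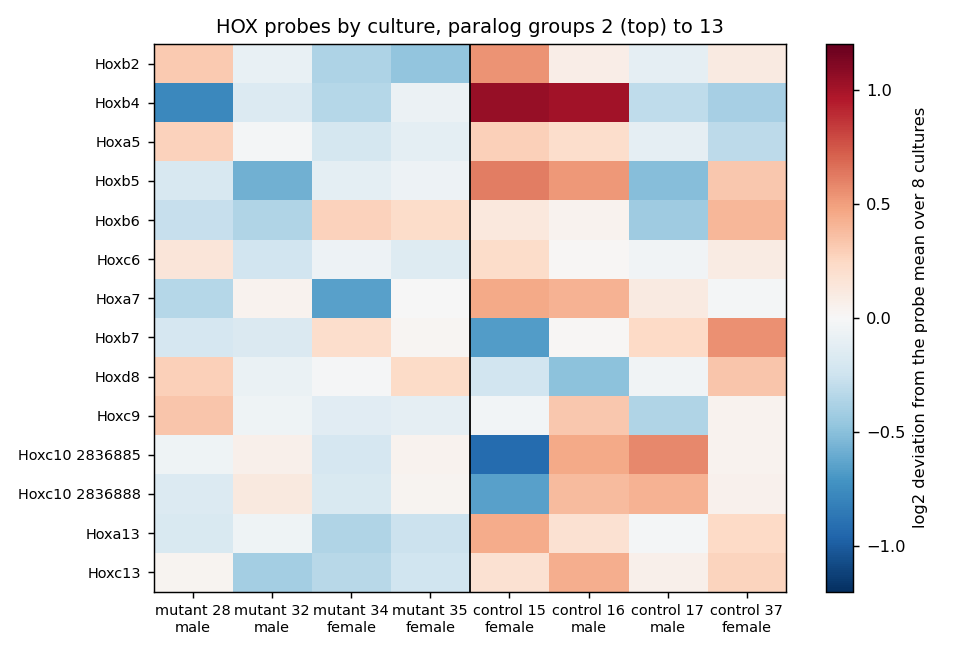
Deviation of each culture (columns) from the probe's mean over the 8 cultures, on the scale of log2(intensity + 16), for the 14 HOX probes ordered by paralog group from 2 at the top to 13 at the bottom. Control mouse 15 is red for Hoxb2 to Hoxb5, Hoxa7 and Hoxa13 and blue for Hoxb7 and Hoxc10. Control mouse 16 is red for Hoxb4, Hoxb5, Hoxa7, Hoxc10 and Hoxc13.

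The comparison of the strains asks whether the mitochondrial Nd2 mutation goes with another HOX code. No HOX probe passed the test. Hoxc13, Hoxa13 and Hoxa7 had lower values in the mutant cultures at an unadjusted p under 0.05, by 0.43 to 0.48 on the log2 scale, and in Hoxa13 and Hoxc13 every mutant culture lay below every control culture. All 3 stand in the study's own list of lower genes, which was drawn from these arrays and is not independent evidence. The other 10 genes of the code had differences with intervals that include 0.

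By limma over all 10414 tested probes, 0 of 14 HOX probes had an adjusted p under 0.05, as 0% of all probes did, and the smallest adjusted p was 0.639 for the HOX probes and for all probes alike. At an unadjusted p under 0.05 limma called 3 of 14 HOX probes (21.4%), all lower in the mutant, against 7.63% of all tested probes, and 3.13% of them in the lower direction. Groups that did not overlap were found for 2 of 14 HOX probes, both lower, against 4.37% of all probes, and 2.13% in that direction. The median difference, mutant minus control, was -0.12 over the 14 HOX probes, 12 of which were below 0, against 0.00 over all tested probes, of which 49.8% were below 0. The methods' t-test on the same values gave 2 HOX probes, Hoxa13 and Hoxc13, at an unadjusted p under 0.05 and 0 after adjustment.

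Hoxc13 had intensities of 20.8, 11.2, 12.6 and 14.6 in mutant mice 28, 32, 34 and 35 and of 24.9, 32.8, 21.6 and 27.4 in control mice 15, 16, 17 and 37. The highest mutant culture was just under the lowest control culture, and several mutant values were at the detection limit. The difference was -0.47 ± 0.15 (SE, n = 4 and 4; limma p = 0.00944, adjusted p = 0.639; exact permutation p = 0.0286, the smallest that 4 against 4 allows, two-sided). Because Hoxc13 drives hair keratins, the hair follicle markers were read beside it: 13 of 14 on the array were detected in no culture and Krt75 in 2, and their summed intensity was 7.89 to 31.6 in the mutants and 14.2 to 32.7 in the controls. Of 11 epidermal keratinocyte markers 2 were detected in all cultures. The sum of the 11 was 206.9 to 1190 in the mutants (median 292.3) and 337.5 to 984.1 in the controls (median 573.3). Of the 2 detected throughout, Krt14 was 38.3 to 1007 in the mutants and 199.2 to 811.8 in the controls. Krt10 went the other way, at 110.9 to 150.4 against 90.9 to 115.6. Of 8 skeletal muscle markers 3 were detected in all cultures, with a sum of 331.2 to 1011 in the mutants and 810.9 to 1323 in the controls. Most of that sum was Acta1, at 242.4 to 933.0 and 754.8 to 1198. The medians of the endothelial, smooth muscle and pericyte, and melanocyte sums were also lower in the mutants. Those of the fibroblast (38766 against 36103), Schwann cell (323.1 against 260.4) and adipocyte (70.3 against 58.9) sums were higher. The macrophage medians were close, at 441.7 against 444.7. The sum of 10 endothelial markers, 5 of them detected in all cultures, was 367.1 to 562.8 in the mutants and 502.1 to 1290 in the controls. Among them Emcn, chosen after its values were seen, did not overlap, at 50.9 to 124.3 against 125.4 to 272.0. Of all tested probes 2.13% were likewise lower in the mutant without overlap. The other endothelial markers detected in all cultures, Pecam1, Tek, Esam and Egfl7, overlapped. Tek went the other way, at 20.99 to 91.2 in the mutants against 15.9 to 49.2 in the controls. The sum of 10 smooth muscle and pericyte markers, 8 of them detected in all cultures, was 11701 to 15541 against 13900 to 16466. Most of it was Acta2, at 10063 to 13935 against 11596 to 13935. The sum of 7 melanocyte markers, of which only Ednrb was detected in all cultures, was 51.3 to 143.2 against 73.8 to 227.4. The part of these markers in the Hoxc13, Hoxa13 and Hoxa7 results was not tested.

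Hoxa13 had intensities of 19.2, 22.5, 14.9 and 17.3 in the mutants and of 38.2, 29.4, 23.2 and 31.1 in the controls. The highest mutant value and the lowest control value, 22.5 and 23.2, nearly met. The difference was -0.43 ± 0.15 (SE; limma p = 0.0149, adjusted p = 0.639; exact permutation p = 0.0286), and it was -0.35 without control mouse 15. It rests on the only Hoxa13 probe that was detected. Hoxa7 had intensities of 62.4, 86.2, 46.9 and 82.5 in the mutants and of 119.8, 116.0, 91.1 and 81.7 in the controls, so that 1 control culture lay among the mutants. The difference was -0.48 ± 0.19 (SE; limma p = 0.0299, adjusted p = 0.639; exact permutation p = 0.0857), and without control mouse 15 it was -0.41 with an unadjusted limma p of 0.0629. Without mutant mouse 35 the differences were -0.47 for Hoxc13, -0.41 for Hoxa13 and -0.56 for Hoxa7. With each mouse left out in turn, Hoxa13 and Hoxc13 stayed at an unadjusted p under 0.05 in all 8 fits, and Hoxa7 did in 4.

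Hoxb4 and Hoxb5 had differences as large, -0.67 ± 0.35 and -0.47 ± 0.24 (SE), with limma p of 0.0787 and 0.0798 (adjusted p = 0.639 for both). Both turned on the controls: without control mouse 15 they were -0.44 and -0.35, and without control mouse 17 they were -0.89 and -0.72, with unadjusted limma p of 0.0278 and 0.00221. The count of HOX probes at an unadjusted p under 0.05 was 5 without control mouse 17, these 2 included, and also 5 without control mouse 15, where Hoxa7 left and both Hoxc10 probes (-0.33 and -0.40) were among those that entered. The remaining differences ran from -0.31 for Hoxb2 to 0.21 for Hoxd8, the only member besides Hoxc9 (0.01) with a value above 0. Between these lay Hoxc6 at -0.15, the Hoxc10 probes at -0.10 and -0.08, Hoxb6 and Hoxb7 at -0.07 each and Hoxa5 at -0.04. The 95% intervals of Hoxc6, -0.45 to 0.16, and of Hoxc9, -0.38 to 0.41, show how large a difference in either direction could have been missed.

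**Figure D5:**
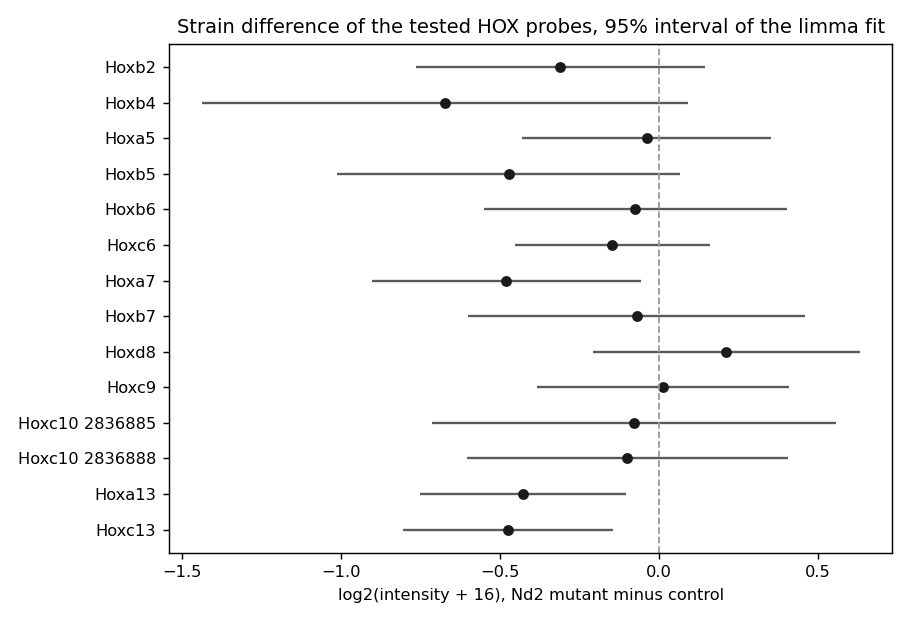
Difference between the strains (Nd2 mutant minus control, n = 4 each) in log2(intensity + 16) for the 14 HOX probes, ordered by paralog group, with the 95% interval of the limma fit as bars. The bars of Hoxa7, Hoxa13 and Hoxc13 lie below 0 and all other bars cross 0, before adjustment for the number of probes.

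The promoters of 3 of these genes are shown to place them in the genome. The RefSeq promoter table (build GRCm38.p6) held 24 entries for 22 of the 39 HOX genes. Hoxa7 and Hoxa13 lie on the minus strand of chromosome 6 and Hoxb4, the most variable member, on the plus strand of chromosome 11; Hoxc13 has no entry. The 100 bases just upstream of the start of transcription, 5′ to 3′ along the gene, with each CpG in capitals, were:
Hoxa7 (chr6:52218574-52218673, minus strand): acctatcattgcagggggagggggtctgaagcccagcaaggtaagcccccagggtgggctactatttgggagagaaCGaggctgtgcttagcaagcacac
Hoxb4 (chr11:96318167-96318266, plus strand): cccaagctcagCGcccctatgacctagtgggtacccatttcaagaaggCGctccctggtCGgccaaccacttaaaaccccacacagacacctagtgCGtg
Hoxa13 (chr6:52260881-52260980, minus strand): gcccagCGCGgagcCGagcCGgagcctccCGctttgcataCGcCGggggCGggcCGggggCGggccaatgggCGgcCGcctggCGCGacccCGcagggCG

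These stretches held 1 CpG for Hoxa7, 4 for Hoxb4 and 16 for Hoxa13. CpG-rich promoters are the usual target of Polycomb and Trithorax complexes. Over the whole entries, of 250 bases before to 50 after the start, the median number of CpG was 14.5 in the HOX entries and 7.0 in all 32851 entries of the table. The sequence TGATNNAT, a form of the joint HOX and PBX binding site, was found on either strand in 4 of 24 HOX entries (16.7%) and in 8.85% of all entries, and in 0 of the 5 entries of genes detected in all cultures. A match of letters is a description of the window, not a binding site.

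The sexes were compared with strain as a term, as sex was the other labelled factor, with 2 males and 2 females in each strain. Hoxb6, a trunk gene of HoxB, had lower values in males: 22.0, 19.8, 31.4 and 18.4 in the males (mutant mice 28 and 32, control mice 16 and 17) and 39.8, 37.5, 34.2 and 44.9 in the females (mutant mice 34 and 35, control mice 15 and 37). Every male lay below every female, and the difference, male minus female, was -0.51 ± 0.15 (SE; limma p = 0.00726, adjusted p = 0.435; exact permutation p = 0.0286, n = 4 and 4), so it did not pass the test. With arrays weighted by their quality in limma it was -0.61 with an adjusted p of 0.0195, the only setting of 17 in which it passed. Hoxb6 was 1 of 14 HOX probes at an unadjusted p under 0.05, against 8.31% of all tested probes, and 1 of 14 without overlap, against 5.16%. The limma count at an unadjusted p under 0.05 was 4 without control mouse 15.

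Whether the strain difference itself differed between the sexes was tested as an interaction. At an unadjusted p under 0.05 limma called 1 of 14 HOX probes, against 1.77% of all tested probes. This was Hoxb2, which patterns the hindbrain and its neural crest. In males its intensity was 208.7 and 154.5 in mutant mice 28 and 32 and 175.1 and 152.3 in control mice 16 and 17. In females it was 124.2 and 114.0 in mutant mice 34 and 35 and 246.4 and 178.9 in control mice 15 and 37. The males of the strains overlapped and the females did not. The interaction was 0.87 ± 0.34 (SE) on the log2 scale, with a limma p of 0.0313 and an adjusted p of 0.9999, and without control mouse 15 it was 0.66. With 2 mice of each sex per strain the interaction rests on few cultures, and the count was 0 in the fits without control mouse 15 or 17 or mutant mouse 28, 34 or 35, and 4 without control mouse 37.

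The partners and regulators of HOX genes also showed no change that passed the test. They were read from 5 lists of 109 genes in all, of which 100 were on the array and 55 genes with 70 probes were tested. By limma 0 of 70 probes had an adjusted p under 0.05, and 4 were higher and 1 lower in the mutant at an unadjusted p under 0.05, which is 5 of 70 beside 7.63% of all tested probes. Among these calls, Cbx2 and 1 probe of Jmjd3 were tested only through detection in the strain where they were higher. The median difference was 0.04 over the 70 probes. Leaving out 1 array moved that count between 1, without control mouse 16, and 11, without control mouse 37; it was also 9 without control mouse 17, 2 without mutant mouse 34 and 3 without mutant mouse 35.

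Among the DNA-binding partners, the 10 tested probes of 7 TALE genes gave no call at an unadjusted p under 0.05, with a median difference of 0.10. The differences were 0.06 for Meis1 and 0.03 for Meis2. Of the other positional factors 14 genes with 16 probes were tested, with a median of -0.01 and 1 call. Twist1, a mesenchymal regulator of the dermis, had intensities of 238.3, 265.4, 326.5 and 294.2 in the mutants and of 194.2, 162.4, 232.6 and 226.5 in the controls, and the strains did not overlap. Its difference was 0.44 ± 0.16 (SE; limma p = 0.0199, adjusted p = 0.639; exact permutation p = 0.0286). En1 differed by 0.02.

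Of the Polycomb genes 17 with 21 probes were tested, with a median of 0.07 and 1 call. Cbx2, a subunit of the complex that reads methylated histone H3 at lysine 27, had intensities of 14.7, 11.5, 22.7 and 20.96 in the mutants and of 10.8, 11.2, 6.43 and 11.8 in the controls, a difference of 0.35 ± 0.16 (SE; limma p = 0.0459, adjusted p = 0.639; exact permutation p = 0.0571) in a gene detected on 4 arrays. Ezh2, the enzyme that sets that methyl mark, differed by 0.03. The 4 arrays on which Cbx2 was detected were those of the mutants. Cbx2 was therefore tested only through detection in the strain where it was higher, so its call is not evidence of a strain difference. Of the Trithorax and demethylase genes 10 with 15 probes were tested, with a median of -0.10 and 3 calls. Both called probes of Men1, a subunit of a Trithorax methyltransferase, were higher in the mutant, by 0.46 ± 0.17 each (SE; limma p = 0.0217 and 0.0244, adjusted p = 0.639 for both; exact permutation p = 0.0286 and 0.0857). For the probe ILMN_2837476 the values were 150.2, 146.7, 144.3 and 186.1 against 81.4, 99.6, 121.3 and 140.3, without overlap, and for ILMN_1219210 they were 151.0, 138.8, 178.1 and 208.2 against 102.0, 114.5, 105.4 and 154.3, with overlap. The array held 3 Men1 probes, and the remaining one was not detected on all arrays of either strain and was not tested.

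Jmjd3, the older symbol of Kdm6b, encodes a demethylase that removes the Polycomb mark. Its probe ILMN_3095624 gave 23.5, 23.5, 9.22 and 20.1 in the mutants and 49.9, 33.5, 23.5 and 24.1 in the controls, a difference of -0.47 ± 0.21 (SE; limma p = 0.0492, adjusted p = 0.639; exact permutation p = 0.0286). Its other probe gave 152.6, 163.7, 88.3 and 112.9 against 510.1, 343.8, 134.5 and 129.4, with overlap, at -0.84 ± 0.39 (SE; limma p = 0.0589, adjusted p = 0.639; exact permutation p = 0.2). By both probes control mice 15 and 16 were the highest cultures. ILMN_3095624 was detected on 7 arrays, and mutant mouse 34, at 9.22, lay below the detection limit. That probe was therefore tested only through detection in the controls, where it was higher, so its call is not evidence of a strain difference. Its highest mutant value and lowest control value, 23.47 and 23.53, nearly met. Kmt2a, the Trithorax methyltransferase best known for keeping HOX genes on, was not analysed here, since no probe in the table carried its symbol or a listed synonym. The 8 tested probes of 7 retinoid genes gave no call, with a median difference of 0.07.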

How the data were processed

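RNA of skin fibroblasts from 8 mice (4 per strain, 1 array each) was measured on MouseRef-8 v2.0 BeadChips. The authors extracted the intensity of each probe in GenomeStudio, quantile normalized it and subtracted background; the deposited intensities are linear, and 26.2% are at or below 0. The deposited detection p-value was computed by the authors' software. Both deposited tables hold the same values. Strain, sex and mouse number came from the labels; whether the mice were handled in batches was not stated.

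Intensities below 0 were set to 0, 16 was added and log2 taken, which understates differences of dim probes. Probes detected (p under 0.01) on all 4 arrays of at least 1 strain were tested with limma 3.58.1 in R 4.3.3, two-sided, with Benjamini-Hochberg adjustment over 10414 probes and a threshold of 0.05. The fit was tested on simulated data. Single probes were also tested by exact permutation of 4 against 4. Array number limits the precision.

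Symbols were matched as deposited; 198 of 217 list genes had a probe. HOX values were given in full for probes at an unadjusted p under 0.05 in any comparison or without overlap between the strains, for Hoxa7, Hoxa13 and Hoxc13, and for the 3 largest and 3 smallest SD; other HOX probes were given by range. The members and lists were chosen with earlier results of these data known. Alternatives were other offsets, filters, centring, tests, weights and leaving out each mouse. Probe sequences were not used here, and a few genes of the lists are not reported here.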

Additional observations from a re-analysis of the deposited data

Results flagged for a closer look

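Single mice far from the other 3 of their strain were looked for on the scale of log2(intensity + 16) in 52 groups of 4 mice, those of the 14 HOX probes detected in all cultures and of 12 partner probes named in the text. In 1 group a mouse stood apart: mutant mouse 35 for the Men1 probe ILMN_2837476, at an intensity of 186.1 against 144.3 to 150.2. On the log2 scale its gap to the nearest mouse was 0.843 of the whole range, above Dixon's 95% critical value for 4, and on linear intensities it was 0.857. Chance sets about 1 in 20 groups apart, or 2.6 of 52. On linear intensities mutant mouse 28 also stood apart for Hoxc9, at 689.5 against 492.8 to 524.1, with a gap of 0.841 of the range. Mutant mouse 35 is the culture with the high macrophage markers, whose part in the Men1 value was not tested. Without that mouse the Men1 strain difference was 0.39 in place of 0.46 on the log2 scale.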

How the results depend on the processing

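The count of HOX probes with a strain difference at an adjusted p under 0.05 was 0 in all 19 alternatives. Hoxa7, Hoxa13 and Hoxc13 kept their direction in all 19, with adjusted p from 0.291 to 0.890. At an unadjusted p, the HOX count of 3 was 1 on linear intensities and 2 to 5 with 1 mouse left out. The partner count of 5 was 3 with 50 added, on linear intensities or with probes detected on all 8 arrays, 11 without a filter, and 1 to 11 with 1 mouse left out. The HOX count of 1 between the sexes was 3 with probes detected on at least 1 array or without a filter, 4 with array weights, and 1 to 4 with 1 mouse left out. For the interaction it was 3, 8, 2, and 0 to 4 in the same order (at least 1 array, no filter, array weights, 1 mouse left out). The strain differences of 13 of 19 single probes never changed direction. The other 6 were small. Hoxa5 reached 0.092 with array weights and -0.15 to 0.050 with 1 mouse left out, Hoxb6 -0.23 to 0.048, Hoxb7 -0.30 to 0.10, the Hoxc10 probes -0.33 to 0.024 and -0.40 to 0.10, and Hoxc9 -0.10 to 0.12. The causes were not tested. The number of HOX genes detected in all cultures was 9 to 16 over the settings, and the median SD 0.210 to 0.421. No paired analysis was possible because mouse numbers are not repeated across the groups. Other background corrections and normalizations and a block for the chip were not run, as the values were normalized before deposit and no chip name was used here. Signal over background limits Hoxa13, Hoxc13 and Cbx2.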

Other observations

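Beyond the HOX genes, Tbx3, a T-box gene of limb and flank patterning, had intensities of 186.1 and 217.6 in control mice 15 and 16, of 97.7 and 67.8 in control mice 17 and 37, and of 100.3, 121.9, 53.4 and 58.0 in the mutants. Shox2, a gene of the proximal limb, had 208.8 and 152.7 in control mice 15 and 16, 70.5 and 90.8 in control mice 17 and 37, and 51.8, 109.6, 95.4 and 170.1 in the mutants. Both genes were chosen after their values were seen, because control mice 15 and 16 were also high for Hoxb4 and Hoxb5. By limma the strains differed by -0.61 for Tbx3 and by -0.25 for Shox2, with adjusted p of 0.648 and 0.836.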
